A study of Pyrus calleryana with 9 samples.

Results

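The genes described here make or assemble the plant cell wall, and they were followed in seeds of callery pear (Pyrus calleryana) during cold stratification, the moist chilling that releases seed dormancy. They were chosen by their Swissprot names in the deposited table, which had to contain cellulose synthase, COBRA, callose synthase, fasciclin-like arabinogalactan, galacturonosyltransferase or extensin. The rule took 241 of 59552 genes, of which 213 had at least 1 read count, 28 had none and 139 had enough counts to be tested. The 74 that had counts but were not tested had means of 0.00285 to 0.402 FPKM, and 55 of the 241 reached a mean of 5 FPKM. Seeds were collected from trees of 1 garden, imbibed for 24 h, laid on wet filter paper and kept at 4 °C. They were sampled at 0, 20 and 50 days with 3 replicates (A, B and C) per stage. Per replicate, 45 seeds were frozen for both physiological measurement and RNA sequencing, and how many went into the RNA is not given. No dissection is described, so embryo and seed coat were taken to be measured together. All stages shared the imbibition, and the day 0 seeds had been imbibed but not chilled. Reads were mapped to the genome of wild pear (P. betuleafolia), which is another species, and all positions below refer to that assembly.

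A growing plant cell wall is a network of cellulose microfibrils embedded in hemicelluloses and pectins, with structural proteins between them. Cellulose is spun at the plasma membrane by complexes of CesA subunits, and COBRA proteins guide how the microfibrils are laid down. Some of the cellulose synthase-like (CSL) families make hemicellulose backbones in the Golgi. Galacturonosyltransferases (GAUT) make pectin and parts of xylan, and callose synthases deposit callose at plasmodesmata, sieve plates and new cell plates. Fasciclin-like arabinogalactan proteins (FLA) and leucine-rich repeat extensins (LRX) sit at the cell surface, where proline-rich extensin-like receptor kinases (PERK) contact the wall. Before a seed germinates, embryo cells have to expand and the tissues around the embryo have to give way.

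The 9 libraries held 13893019 to 16228340 counts. Levels are given as FPKM, the authors' read density per gene length and library size, and differences as log2 fold changes from edgeR's quasi-likelihood test on the counts, with Benjamini-Hochberg adjustment over 28339 tested genes. A gene was called when its adjusted p was at most 0.01, its log2 fold change was at least 1 in size and its mean reached 1 FPKM in at least 1 of the 2 stages. Libraries day 20 B and day 50 C stood apart, with correlations to the other replicates of their stage of 0.883 to 0.924, against 0.954 to 0.975 for all other pairs within a stage. Seed reserve markers (legumins, vicilins and oleosins) were present in every library, all 22 genes having counts, and their summed level was 14700 to 27700 FPKM at day 0, 14800 to 18700 at day 20 and 2470 to 5880 at day 50. Of the 21 reserve genes tested, 9 fell and 1 rose from day 0 to day 50 (47.6% called). Over all tested genes 26.6% were called, 15.6% as rises and 11% as falls. The highest reserve gene, Oleosin 1 (Chr7.g32129), fell by 2.46 on the log2 scale (adjusted p = 0.00176). Markers of photosynthetic tissue (39 genes, 22 tested, 15 higher and 1 lower to day 50, 72.7% called) summed to 171 to 269, 139 to 195 and 532 to 692 FPKM at the 3 stages. Those of pollen (37 genes, 17 tested, 5 higher and 2 lower to day 50, 41.2% called) summed to 675 to 939, 617 to 1260 and 784 to 1390 FPKM. Of the pollen sum at day 0, genes named protein DOWNSTREAM OF FLC made up 328 to 475 FPKM and profilin-2 genes 214 to 351. A pollen allergen Amb a 3 gene was at 0 throughout. The part of the reserve, photosynthetic and pollen markers in the results below was not tested. In pooled whole seeds, a change in the number of cells of a type and a change in RNA per cell cannot be told apart.

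More wall genes rose than fell. In the comparison of day 0 with day 20, 22 of the 139 tested were called (15.8%, against 12.4% of all tested genes), of which 20 rose (14.4%, against 7.88%) and 2 fell (1.44%, against 4.52%). By day 50, 38 were called against day 0 (27.3%, against 26.6%), of which 35 rose (25.2%, against 15.6%) and 3 fell (2.16%, against 11%). The total of calls at day 50 was thus near the background, and what set the wall genes apart from it was the share of rises and falls. Between day 20 and day 50, 1 gene was called (0.719%, against 1.66%, or 1.4% for rises), and it rose. The median log2 fold change of the wall genes was 0.86 from day 0 to day 20, 0.14 from day 20 to day 50 and 0.94 from day 0 to day 50, against 0.15, -0.06 and 0.16 for all tested genes. Replicates of day 0 and day 50 did not overlap for 72 wall genes (51.8%, against 55.6% of all tested genes), and those of day 0 and day 20 for 64 (46.0%, against 42.1%).

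At least 1 comparison called 40 of the 139 tested wall genes, against 7891 of all 28339 tested genes. How often all tested genes took each of the patterns below was not counted. Of the 40 wall genes, 19 were higher than day 0 at both later stages, 15 were higher at day 50 only, 1 was lower at both and 2 were lower at day 50 only. Of the other 3, 1 was called higher and 1 lower at day 20 but not at day 50, and 1 was called higher at day 50 against both earlier stages. A call at one stage and not at another does not show that the stages differ, and the comparison of day 20 with day 50 called just this last gene.

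**Figure D1:**
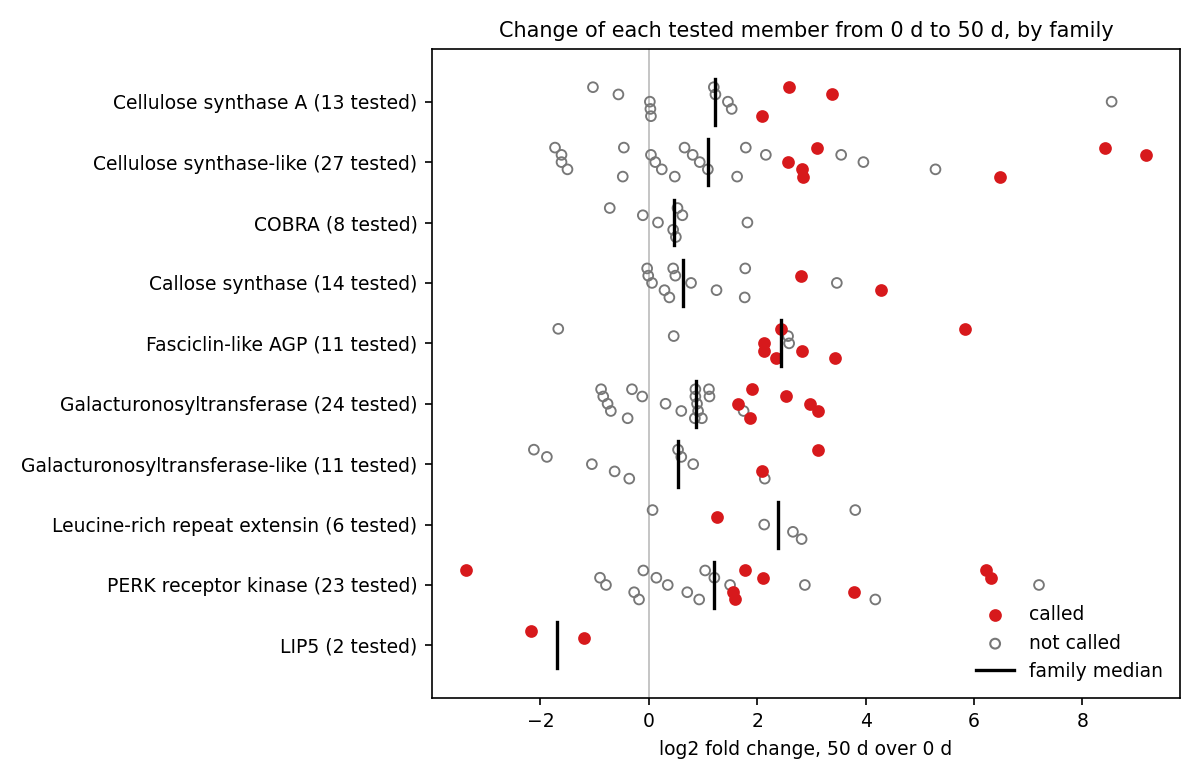
Log2 fold change from day 0 to day 50 (horizontal axis) of each tested wall gene, by family; filled red points were called, open points were not, and the black bar is the family median. The medians run from -1.69 for the LIP5 pair under other matches to 2.44 for the fasciclin-like arabinogalactan proteins, and 35 of the 38 called genes lie to the right of 0.

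Gene length moved with these differences. Over all tested genes, the median log2 fold change from day 0 to day 50 ran from -0.41 for genes under 1000 bases to 0.71 for genes of 5000 bases and over. The tilt was present in day 20 A and C and in day 50 A and B, whose genes of 5000 bases and over had medians of 0.93 to 1.37 above the day 0 mean. In day 20 B and day 50 C the longest genes went the other way. Their medians were 0.01 and -0.03 for genes under 1000 bases and -0.67 and -0.56 for those of 5000 bases and over. The median gene length was 1162 bases over all genes. Among the wall gene families it ran from 1065 for GATL and 1213 for FLA through 2456 for CSL and 3511 for CesA to 6153 for callose synthases. Of the 22 genes called from day 0 to day 20, day 20 B was the library nearest to the day 0 mean for 18, and of the 38 called from day 0 to day 50, day 50 C was the nearest for 27.

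Shares of rises were also taken within length classes. To day 50, 12 of 41 wall genes of 1000 to 1999 bases rose (29.3%, against 17.8% of all tested genes of that length), and 17 of 56 of 2000 to 2999 bases (30.4%, against 19.4%). For genes of 3000 to 4999 bases the shares were 3 of 22 (13.6%) and 13.3%, and for those of 5000 bases and over 2 of 13 (15.4%) and 7.06%. With the length trend of each library removed, an alternative chosen after seeing the data that moved the median of all tested genes from 0.16 to -0.16, 32 wall genes were called higher and 14 lower from day 0 to day 50, a share of 69.6% higher against 92.1% before and against 44.7% over all tested genes. For day 20 it gave 23 higher and 7 lower (76.7% higher, against 90.9% before and 48.5% over all tested genes). With day 20 B and day 50 C both left out, 59 were called higher (42.4%, against 22.9% of all tested genes in the same fit) and 6 lower (4.32%, against 19.2%) from day 0 to day 50.

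**Figure D2:**
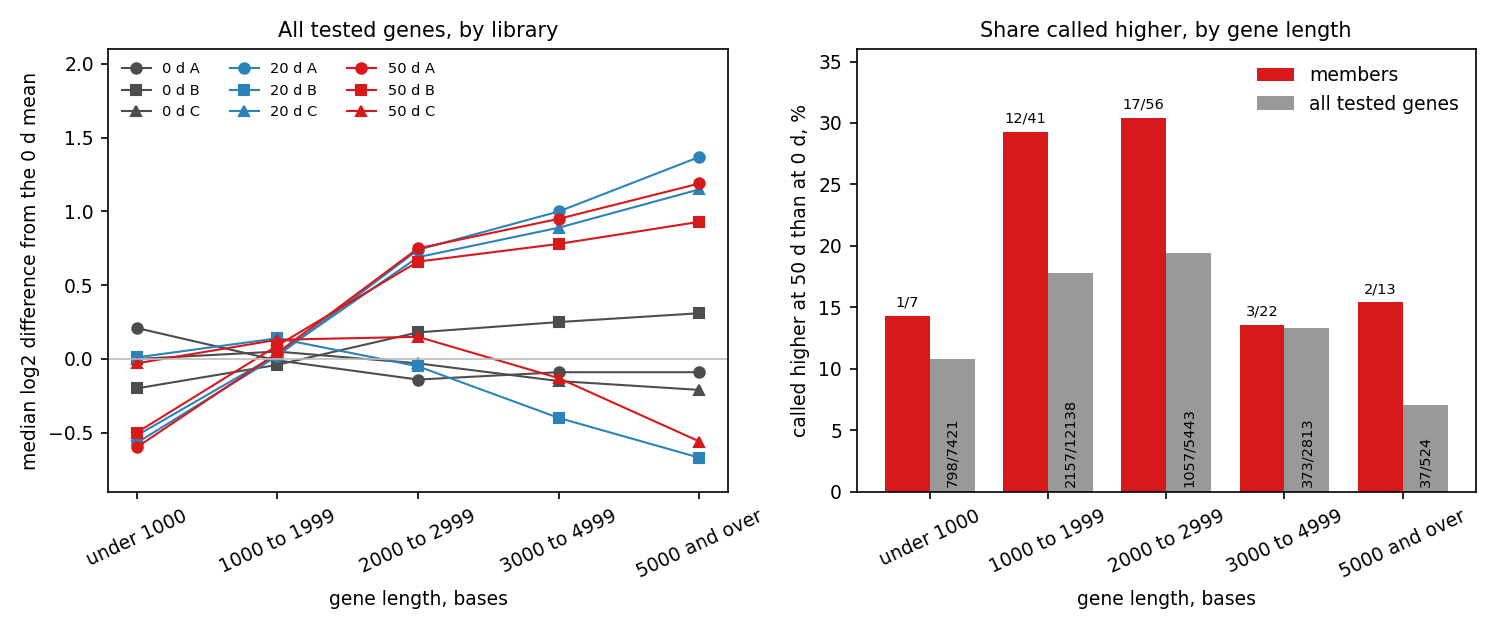
Left, median log2 difference from the day 0 mean (vertical axis) of all tested genes by gene-length class in bases (horizontal axis), 1 line per library; 4 of the 6 later libraries climb with length while day 20 B and day 50 C do not. Right, percent of tested genes called higher from day 0 to day 50 by length class, with the wall genes and all tested genes as bars and their numbers written on them, from 1 of 7 wall genes under 1000 bases to 17 of 56 at 2000 to 2999 bases.

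The CesA subunits were described by wall type. In Arabidopsis, CesA1, CesA3 and the CesA6 group (which includes CesA2) form the complex of growing primary walls, and CesA4, CesA7 and CesA8 that of thickened secondary walls. All 8 primary-wall genes were tested and 3 rose from day 0 to day 50 (37.5%, against 15.6% for rises over all tested genes). The median log2 fold change of the 8 was 1.49. Of the 13 secondary-wall genes, 11 had counts, 5 were tested, none was called and the median was 0.02. The difference between the groups was not tested. None of the CesA genes was called from day 0 to day 20, against 12.4% of all tested genes. With the length trend removed the CesA median to day 50 went from 1.23 to 0.39, with 3 genes called higher and 1 lower.

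The level of primary-wall CesA followed the libraries that stood apart. Summed FPKM was 38.9, 53.9 and 34.6 at day 0, 141, 33.2 and 135 at day 20, and 149, 137 and 51.1 at day 50 for A, B and C in turn. Secondary-wall CesA was 36.1 ± 6.46 at day 0, 26.2 ± 4.62 at day 20 and 27.4 ± 3.33 FPKM at day 50 (SD, n = 3). Most of the secondary-wall sum came from 2 gene models that also carry domains foreign to CesA, translation initiation factor IF-3 domains in Chr2.g41139 and Myb domains in Chr10.g15234, so that their reads may not all belong to CesA transcripts. The ratio of primary to secondary CesA, which rests on these models, was 0.9 to 1.77 at day 0. It was 6.18 and 5.56 in day 20 A and C, 6.18 and 5.0 in day 50 A and B, but 1.06 in day 20 B and 1.66 in day 50 C, both within the day 0 range.

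CesA6 (Chr1.g58619, chromosome 1, 169277 to 175040) had the largest called rise, from 0.242, 0.399 and 0.0627 FPKM at day 0 to 1.31, 0.892 and 0.918 at day 20 and 1.95, 1.86 and 3.48 at day 50. All later libraries lay above all day 0 libraries, and day 50 C was the highest library (log2 fold change 3.38 ± 0.59 SE from day 0 to day 50, adjusted p = 0.000936). A CesA2 gene on chromosome 5 (Chr5.g09320) was at 1.84, 2.07 and 1.7 FPKM at day 0, 10.1, 2.11 and 8.85 at day 20, and 12.1, 15.2 and 4.72 at day 50. It rose by a log2 fold change of 2.58 ± 0.57 to day 50 (adjusted p = 0.00359), with day 50 C the lowest of its stage, and the call was lost without any 1 of the day 0 libraries, day 50 A or day 50 B (adjusted p up to 0.0261). The CesA2 gene on chromosome 10 (Chr10.g17114) went from 3.29 ± 0.828 to 12.5 ± 6.81 and 13.3 ± 6.72 FPKM (log2 fold change 2.08 ± 0.53 to day 50, adjusted p = 0.00836). Its call was lost without any of the day 0 libraries, day 20 C, day 50 A or day 50 B (adjusted p up to 0.0505).

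The most abundant subunit did not pass the test. CesA1 on chromosome 15 (Chr15.g03837, 7421082 to 7427885) was at 11.3, 15.4 and 11.3 FPKM at day 0, 36.5, 9.09 and 34.9 at day 20, and 39.2, 30.0 and 13.7 at day 50. Day 20 B lay below every day 0 library and day 50 C within their range, so the stages overlapped (log2 fold change 1.20 ± 0.51 to day 50, adjusted p = 0.0769). Without those libraries CesA1 was called (1.49, adjusted p = 0.000109), and also with the length trend removed within stages only (1.09, adjusted p = 0.0022), whereas with the trend removed against all libraries its log2 fold change was 0.39 (adjusted p = 0.18). The other CesA1 gene and both CesA3 genes, named after their values were seen, had log2 fold changes of 1.23 to 1.53 and adjusted p of 0.0294 to 0.11.

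Among secondary-wall subunits, CesA7 (Chr2.g41139) was at 17.9, 15.8 and 17.5 FPKM at the 3 stages (log2 fold change 0.03). The CesA4 gene Chr10.g15234 was at 17.2 ± 4.59, 9.68 ± 0.443 and 8.01 ± 0.546 FPKM (-1.03, adjusted p = 0.0106, not called). It was called lower with DESeq2, with RLE factors and with the length trend removed (-1.71, adjusted p = 0.00539). Its neighbour Chr10.g15233, another CesA4 gene, had no count at day 0 and 0.859 FPKM at day 50, passing the p and fold limits (adjusted p = 0.0013) but not the limit of 1 FPKM. These genes were chosen after their values were seen. Of the secondary wall and xylem markers (56 genes, 46 with counts, 26 tested), 5 were called higher and 1 lower to day 50 (23.1%, against 26.6% of all tested genes). These markers summed to 441 to 597, 255 to 512 and 291 to 500 FPKM, of which cinnamoyl-CoA reductase 1 genes made up 390 to 527 at day 0. Among them the regulators NAC43 and MYB46 stood at no more than 0.0831 and 0.832 FPKM in any library, NAC43 at 0 throughout day 0, and laccase-4 was at 0 at day 0 and 0.654 to 1.85 FPKM at day 50. Some xylan synthesis names of the list were higher. IRX10L was at 25.3 to 37.8 FPKM at day 0 and 17.5 to 19.7 at day 50, IRX14 at 13.8 to 24.1 and 7.62 to 13.6, and IRX9H at 8.45 to 11.2 and 9.43 to 15.2. The other IRX names were low. IRX7 was at 2.08 to 2.69 FPKM at day 0 and 3.15 to 5.67 at day 50, and IRX10 at 0.22 to 0.423 and 1.05 to 2.13. IRX9 was at 0.0534 to 0.378 and 0.227 to 0.286, and IRX14H at 0 to 0.487 and 0. The part of these markers in the CesA values was not tested.

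**Figure D3:**
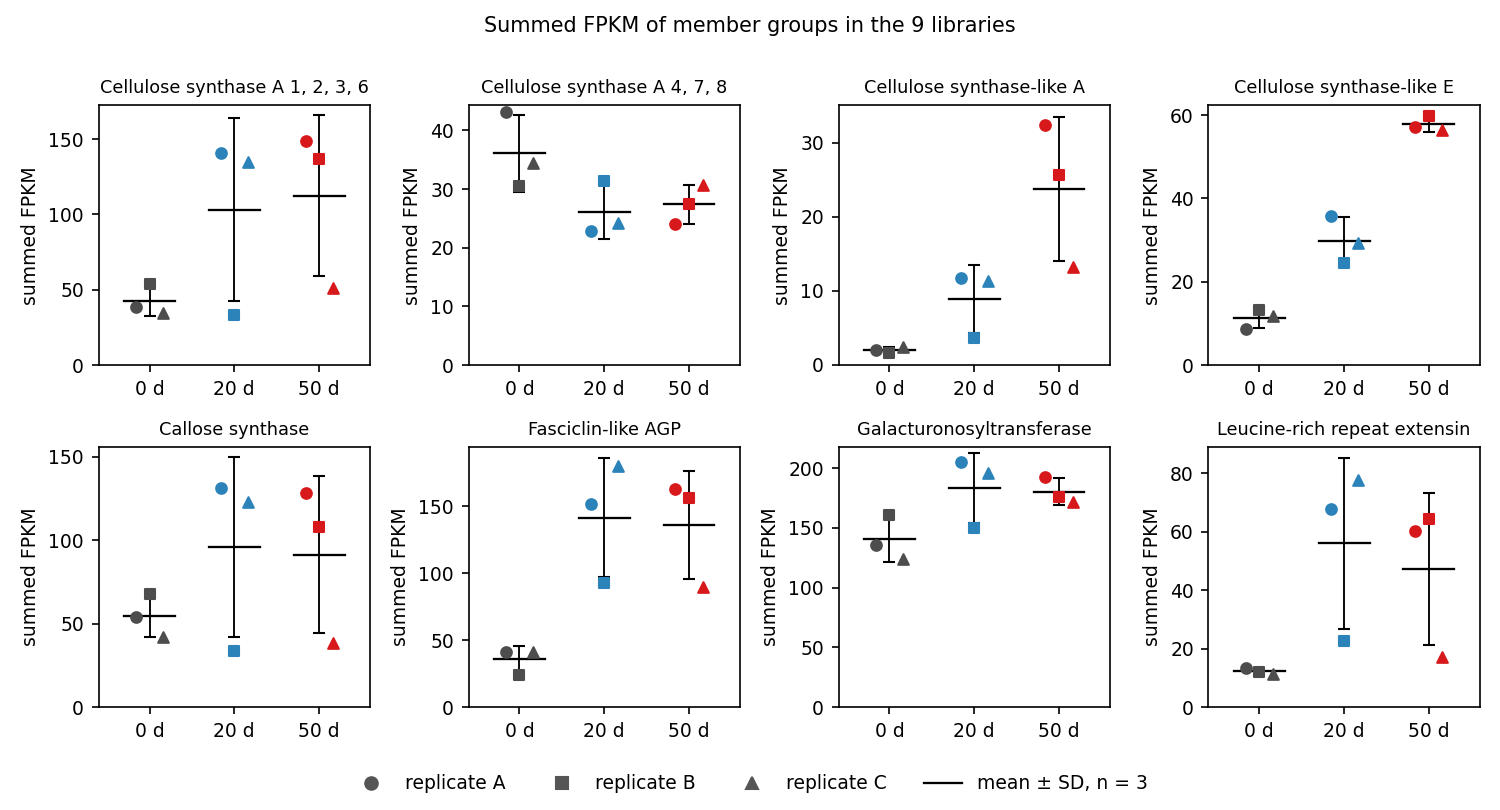
Summed FPKM (vertical axes) of 8 gene groups in the 9 libraries by stage, with 1 point per replicate. CSLE rises at each stage with no overlap, whereas primary-wall CesA and callose synthases show day 20 B and day 50 C at or below the highest day 0 library.

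The cellulose synthase-like genes gave 7 rises and no fall from day 0 to day 50 among 27 tested (of 45 genes, 44 with counts), with a median log2 fold change of 1.09. That was 25.9% called, against 26.6% of all tested genes, or 15.6% for rises. At day 20, 5 were called higher than at day 0 and none lower (18.5%, against 12.4%, or 7.88% for rises). With the length trend removed, 7 were called higher and 3 lower and the median was 0.42. The 3 largest called rises belonged to mannan synthases.

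Glucomannan 4-beta-mannosyltransferases (CSLA) make the backbone of mannans, the hemicelluloses that also stiffen seed endosperm walls in several species. Of 7 CSLA genes 5 were tested, and 3 rose to day 50 (60%, against 15.6% for rises over all tested genes). All 3 are annotated as glucomannan 4-beta-mannosyltransferase 2. Chr3.g19615 (chromosome 3, 11458545 to 11464052) was at 0, 0 and 0.0559 FPKM at day 0, 2.16, 1.04 and 1.98 at day 20, and 10.2, 5.63 and 5.11 at day 50. Each stage lay wholly above the one before, although the step from day 20 to day 50 was not called. With 2 counts at day 0 and 947 at day 50 the depth-scaled ratio was 415 (95% counting interval 115 to 3430), and the calls were an adjusted p of 0.000384 to day 20 and 2.68e-05 to day 50.

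Chr11.g11240 (chromosome 11, 14069859 to 14075589) was at 0.205, 0.0449 and 0.185 FPKM at day 0, 6.94, 1.48 and 7.57 at day 20, and 16.1, 15.4 and 5.17 at day 50. All later libraries lay above all day 0 libraries, with day 20 B and day 50 C lowest in their stages (log2 fold change 5.29 ± 0.78 to day 20, adjusted p = 0.000978, and 6.48 ± 0.80 to day 50, adjusted p = 0.000118). Chr3.g19703 had no count at day 0, 0.428, 0.168 and 0.607 FPKM at day 20, and 2.42, 0.764 and 0.879 at day 50. It was at least 71.5-fold higher at day 50, taking 3 counts over the day 0 group as the floor (adjusted p = 0.000348). Counting intervals and floors cover counting error only. Neither of the other tested CSLA genes, both annotated as glucomannan 4-beta-mannosyltransferase 9 and named after their values were seen, was called: Chr14.g47757 was at 0.676, 0.307 and 2.0 FPKM and Scaffold13.g47538 at 1.07, 1.14 and 1.04. The summed CSLA level was 1.96 ± 0.408, 8.93 ± 4.57 and 23.8 ± 9.76 FPKM, and its libraries at both later stages lay above those of day 0.

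Xyloglucan glycosyltransferases (CSLC) make the glucan backbone of xyloglucan. Of 13 genes 9 were tested and 1 rose from day 0 to day 50 (11.1%, against 15.6% for rises over all tested genes). It was Chr17.g26118 (0.263 ± 0.0761 to 1.85 ± 1.09 and 1.79 ± 0.9 FPKM, log2 fold change 2.84, adjusted p = 0.00399), a call lost without any day 0 library, day 50 A or day 50 B (adjusted p up to 0.023). The CSLC median was 2.16, and 3 more CSLC genes passed the p and fold limits from day 0 to day 50 but stayed at 0.896 to 0.993 FPKM at day 50. Of the 8 CSLD genes, a group linked to tip growth in Arabidopsis root hairs, 2 were tested and none was called, against 26.6% of all tested genes to day 50.

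CSLE6 (Chr3.g20731, chromosome 3, 1772006 to 1776464), singled out after its values were seen, rose in every replicate to a like extent. It was at 4.6, 6.01 and 5.63 FPKM at day 0, 20.6, 18.5 and 18.3 at day 20, and 44.4, 43.3 and 47.3 at day 50. The stages were wholly separate and the replicates close, including day 20 B and day 50 C. The log2 fold change was 1.90 ± 0.26 to day 20 (adjusted p = 0.000767) and 3.11 ± 0.28 to day 50 (adjusted p = 2.25e-05), and the step of 1.21 from day 20 to day 50 had an adjusted p of 0.0188. Its gene lies in a run of 5 CSLE genes on chromosome 3 (1736928 to 1776464), of which 4 were tested. Within the run, the CSLE1 gene Chr3.g20737 rose (2.57, adjusted p = 0.00352), a call lost without any day 0 library or day 50 A (adjusted p up to 0.0234). Its neighbour Chr3.g20736 went from 4.89 to 8.54 and 9.97 FPKM without a call (adjusted p = 0.0485), and Chr3.g20733 stayed at or below 0.446 FPKM on average. Neighbouring copies can share reads, and the sources used here do not say how reads mapping to several places were counted.

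The CSLG and CSLH groups, some of whose members act outside the wall in other plants, differed among themselves. CSLG3 on chromosome 14 (Chr14.g49331, chosen after its values were seen) was at 5.0, 3.7 and 4.07 FPKM at day 0, 22.3, 9.95 and 25.1 at day 20, and 34.7, 32.4 and 19.2 at day 50. All later libraries were above all day 0 libraries (log2 fold change 2.82 ± 0.40 to day 50, adjusted p = 0.000273). The other 3 tested CSLG genes had log2 fold changes of -1.61 to -1.5 and none was called. CSLH1 on chromosome 17 (Chr17.g25594, 6652383 to 6657675), the most abundant of the family, was at 83.2, 80.9 and 63.3 FPKM at day 0, 43.3, 43.2 and 58.3 at day 20, and 42.0, 60.1 and 54.5 at day 50. In FPKM each day 50 library lay below each day 0 library, and no call was made (-0.48 ± 0.28, adjusted p = 0.19), but it was called lower with the length trend removed (-1.11, adjusted p = 0.00725).

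The COBRA genes gave no calls. Of 21 genes 18 had counts and 8 were tested, and over all tested genes 26.6% were called from day 0 to day 50 (15.6% for rises). The COBRA median log2 fold change from day 0 to day 50 was 0.47, or -0.27 with the length trend removed. COBRA itself (Chr6.g51088), a GPI-anchored protein that orients cellulose deposition in Arabidopsis, was at 10.6, 6.23 and 9.99 FPKM at day 0, 6.09, 5.36 and 4.32 at day 20, and 10.2, 8.18 and 5.19 at day 50. Day 0 and day 50 overlapped (-0.11 ± 0.35, adjusted p = 0.819, and 0.09 without day 50 C), and the summed level of the family was 22.6 ± 3.93, 25.9 ± 1.02 and 24.7 ± 6.22 FPKM.

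Callose synthases, the longest genes of the set, gave 1 rise to day 20 and 2 to day 50 among 14 tested of 17, with no fall. The shares were 7.14% and 14.3%, against 7.88% and 15.6% for rises over all tested genes. The median log2 fold change to day 50 was 0.64, and -0.11 with the length trend removed, which also gave 3 rises. Callose synthase 3 on chromosome 11 (Chr11.g09793, 977201 to 994936), which controls callose at plasmodesmata in Arabidopsis, was at 1.08, 0.812 and 0.712 FPKM at day 0, 17.5, 3.58 and 15.0 at day 20, and 23.5, 19.3 and 5.66 at day 50. The lowest later library, day 20 B, was above the highest day 0 library (log2 fold change 3.87 ± 0.65 to day 20, adjusted p = 0.00193, and 4.29 ± 0.67 to day 50, adjusted p = 0.00045). The call at day 20 was lost without any 1 of the day 0 libraries (adjusted p up to 0.0174), and the call at day 50 was kept without each library in turn.

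Directly beside it lies callose synthase 9 (Chr11.g09792, 954971 to 976262), which was at 13.2, 17.8 and 10 FPKM at day 0, 21.9, 8.64 and 20.7 at day 20, and 23.6, 20.0 and 7.48 at day 50. Its stages overlapped, with day 20 B and day 50 C the 2 lowest libraries of all (0.38 ± 0.47, adjusted p = 0.529, and -0.43 with the length trend removed). Both neighbours thus shared the drop in day 20 B and day 50 C, while a difference between stages beyond the replicate spread was called for callose synthase 3 alone of the pair.

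Callose synthase 7, which acts at sieve plates in Arabidopsis phloem, had 3 tested genes, of which 1 was called. Chr9.g46047 went from 0.305, 0.0957 and 0.163 FPKM at day 0 to 0.731, 0.234 and 1.6 at day 20 and 1.79, 1.25 and 0.684 at day 50. Day 50 lay above day 0 without overlap (2.81 ± 0.70, adjusted p = 0.00696), but the call was lost without any day 0 library, day 50 A or day 50 B (adjusted p up to 0.0379). Of the others, named after their values were seen, Chr17.g26030 was at 4.19, 2.9 and 3.91 FPKM at the 3 stages (-0.03, adjusted p = 0.934) and the neighbour Chr9.g46048 at 0.934, 0.735 and 2.14 (1.25, adjusted p = 0.0687). Of the phloem markers (39 genes, 29 tested), 9 were called higher and 5 lower to day 50 (48.3%, against 26.6% of all tested genes). These markers summed to 406 to 483, 254 to 287 and 349 to 385 FPKM at the 3 stages. Among their defining members the sieve element occlusion A genes stood at 0.362 to 1.24 FPKM at day 0, 5.18 to 8.1 at day 20 and 14.7 to 30.9 at day 50. Sieve element occlusion C was at 0 at day 0 and 0.0836 to 0.525 FPKM at day 50. Other names of the list went down. Elicitor-responsive protein 1 was at 42.9 to 73.3 FPKM at day 0 and 7.26 to 13.0 at day 50, and F-box protein PP2-A15 at 135 to 208 and 64.6 to 82.8. The part of the phloem markers in the callose synthase 7 result was not tested. Callose synthase 11 (Chr10.g14176, chosen after its values were seen) was at 0.801, 10.2 and 8.44 FPKM and just missed the threshold (3.47, adjusted p = 0.0102).

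The fasciclin-like arabinogalactan proteins had the largest share of calls among the families with more than 2 tested genes. Of 29 genes 23 had counts and 11 were tested, and 7 of these rose from day 0 to day 50. That was 63.6% of those tested, against 15.6% for rises and 26.6% for calls in either direction over all tested genes. From day 0 to day 20, 6 rose and 1 fell (63.6% called, against 12.4% of all tested genes). The median log2 fold change to day 50 was 2.44, and 1.88 with the length trend removed, where 8 were called higher and 1 lower. FLA genes are short, with a median of 1213 bases near that of all genes. Replicates of day 0 and day 50 did not overlap for 10 of the 11, against 55.6% of all tested genes.

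FLA8 (Chr2.g42905, chromosome 2, 13761015 to 13762867), a GPI-anchored arabinogalactan protein, had the highest mean level of all 241 genes, 59.5 FPKM. It was at 18.2, 6.46 and 17.7 FPKM at day 0, 107, 56.3 and 124 at day 20, and 80.7, 84.7 and 40.0 at day 50. No later library overlapped with day 0, even the low day 20 B and day 50 C. The log2 fold change was 2.85 ± 0.48 to day 20 (adjusted p = 0.00199) and 2.35 ± 0.47 to day 50 (adjusted p = 0.00218), and both calls were lost without day 0 A or without day 0 C (adjusted p up to 0.0124 and 0.0104).

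FLA1 (Chr3.g18896) went from 2.33, 1.15 and 1.35 FPKM at day 0 to 12.6, 8.2 and 14.3 at day 20 and 21.0, 20.4 and 7.67 at day 50. It too was separate from day 0 at both stages (3.43 ± 0.47 to day 50, adjusted p = 0.000227). FLA4, whose Arabidopsis counterpart is needed for normal root growth under salt, was represented by 2 genes that both rose: Chr3.g20073 to 6.31 FPKM at day 50 from 0.94 (2.83 ± 0.54, adjusted p = 0.00158) and Chr11.g10739 to 3.88 from 0.753 (2.44, adjusted p = 0.0023). The first of these calls was lost without day 0 B or without day 0 C (adjusted p up to 0.0126), and the second without any day 0 library (adjusted p up to 0.0141). Both FLA17 genes rose as well, Chr14.g48108 from 5.63 to 17.9 and 23.4 FPKM (2.12, adjusted p = 0.000338) and Chr12.g37600 by 2.13 (adjusted p = 0.00131, and 0.0105 without day 0 C). Chr11.g10739 and the FLA17 pair were named after their values were seen.

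FLA9 (Chr15.g03300, chromosome 15, 10999313 to 11000272) was the only wall gene called between day 20 and day 50. It was at 0, 0 and 0.229 FPKM at day 0, 0, 0 and 0.0679 at day 20, and 6.3, 1.55 and 5.93 at day 50. With 1 count at day 20 and 221 at day 50 the ratio was 196 (95% counting interval 34.8 to 7770), and against the 3 counts of day 0 it was 64.5 (21.8 to 315). All day 50 libraries lay above all earlier ones, and day 50 B was the lowest of them. The call from day 20 to day 50 (adjusted p = 0.00551) was lost without day 0 A, day 20 A, day 20 C or day 50 A (adjusted p up to 0.0271), and that from day 0 to day 50 had an adjusted p of 0.000971.

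FLA2 (Chr17.g25774) went the other way. It was at 9.15, 6.34 and 11.7 FPKM at day 0, 0.796, 1.95 and 0.812 at day 20, and 4.33, 1.73 and 2.04 at day 50. All later libraries were below all day 0 libraries, and it fell by 2.85 ± 0.51 on the log2 scale to day 20 (adjusted p = 0.00268), a call that was lost without day 0 A, day 0 C, day 20 A or day 20 C (adjusted p up to 0.0152). The difference to day 50 was -1.67 (adjusted p = 0.0155, not called). A fall to day 50 was called in 9 of the alternatives, among them DESeq2 (-1.74, adjusted p = 0.00229) and removal of the length trend within stages (-1.65, adjusted p = 0.008) or against all libraries (-1.93, adjusted p = 0.00347).

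The galacturonosyltransferases were nearly all expressed, 24 of 25 genes being tested. From day 0 to day 50, 6 rose and none fell (25% called, against 26.6% over all genes, or 15.6% for rises), with a median log2 fold change of 0.88. With the length trend removed the calls were 5 higher and 5 lower and the median was 0.25, so that rises no longer outnumbered falls in this family. In that fit 4296 of all tested genes were called higher and 5313 lower (44.7% higher). Their summed level was 140 ± 19.1, 184 ± 29.5 and 181 ± 11.2 FPKM.

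GAUT8, known in Arabidopsis as QUASIMODO1 and needed there for homogalacturonan and for cells to stay attached to each other, was represented by 2 genes and both rose. Chr10.g15433 (chromosome 10, 20942281 to 20944929) was at 1.05, 2.73 and 3.07 FPKM at day 0, 17.9, 20.1 and 15.1 at day 20, and 17.7, 15.4 and 18.8 at day 50. Day 20 B was the highest library of its stage and day 50 C of its own, and no later library was near day 0. In CesA1 (Chr15.g03837) these libraries were the lowest of their stages, whereas in CesA7 (Chr2.g41139) they were the highest. The log2 fold change was 3.02 ± 0.39 to day 20 (adjusted p = 0.00058) and 2.97 ± 0.39 to day 50 (adjusted p = 0.000177) with means of 17.7 ± 2.54 and 17.3 ± 1.72 FPKM. The other GAUT8 gene (Chr5.g07481, chosen after its values were seen) was at 2.83, 5.7 and 5.69 FPKM at day 0, 19.1, 13.8 and 15.0 at day 20, and 15.0, 13.2 and 14.9 at day 50, again without overlap (1.65 ± 0.34 to day 50, adjusted p = 0.00233).

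GAUT15 (Chr9.g45997), also chosen after its values were seen, was at 2.16, 2.78 and 2.72 FPKM at day 0, 18.3, 14.3 and 15.8 at day 20, and 10.9, 7.1 and 8.72 at day 50. Day 20 was the highest stage, with no overlap with either other stage (2.74 ± 0.30 to day 20, adjusted p = 0.000245, and 1.86 ± 0.29 to day 50, adjusted p = 0.000492). GAUT12, which in Arabidopsis acts in xylan formation in secondary walls, was low until day 20. Chr11.g12504 was at 0.393, 0.173 and 0.0509 FPKM at day 0, 0.31, 0.2 and 0.181 at day 20, and 1.31, 1.69 and 2.19 at day 50. The day 50 libraries stood above all others (3.12 ± 0.67, adjusted p = 0.00299), a call lost without day 0 B, day 0 C or day 50 B (adjusted p up to 0.0163).

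GAUT7, which anchors the homogalacturonan-making GAUT1 in the Golgi of Arabidopsis, rose in 1 of its tested genes. Chr4.g40288 was at 0.849, 1.22 and 0.645 FPKM at day 0, 4.3, 1.46 and 4.16 at day 20, and 6.17, 5.82 and 3.16 at day 50 (2.54 ± 0.48 to day 50, adjusted p = 0.00156). All later libraries were above day 0, and the call was lost without day 0 A or without day 0 C (adjusted p up to 0.0137). GAUT9 (Chr17.g25276, named after its values were seen) rose by 1.90 (adjusted p = 0.00858), a call lost without day 0 A, day 0 C, day 20 C, day 50 A or day 50 B (adjusted p up to 0.0502) and with the length trend removed (1.36, adjusted p = 0.0117). The most abundant member, GAUT6 (Chr10.g15089), was at 19.9, 19.3 and 23.9 FPKM at the 3 stages (0.31, adjusted p = 0.525, with -0.02 without day 50 C and -0.23 with the length trend removed).

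The galacturonosyltransferase-like genes (GATL), whose product is less settled, had 11 of 19 genes tested and 2 rises to day 50. That was 18.2%, against 15.6% for rises over all tested genes. The median log2 fold change was 0.54, or -0.05 with the length trend removed. GATL9 on chromosome 16 (Chr16.g30686) was at 1.25, 1.64 and 1.46 FPKM at day 0, 3.13, 2.81 and 4.19 at day 20, and 4.76, 8.42 and 4.64 at day 50. The 3 stages were separate (2.09 ± 0.41 to day 50, adjusted p = 0.00187), and the call was lost without day 0 A, day 0 C or day 50 B (adjusted p up to 0.0122). GATL3 (Chr13.g24144) went from 0.294 to 0.764 and 2.54 FPKM (3.13 ± 0.82, adjusted p = 0.00941), a call kept without day 20 B or day 50 C and lost without any other library (adjusted p up to 0.0388). The abundant GATL9 gene on chromosome 17 (Chr17.g24963) was at 25.5, 31.2 and 33.6 FPKM at day 0 and 18.2, 12.3 and 11.2 at day 50, lower without overlap but not called (-1.05, adjusted p = 0.0365).

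Leucine-rich repeat extensins, which bind the wall and peptides that control its expansion, had 6 of 15 genes tested, all with log2 fold changes above 0 to day 50 (median 2.39, and 2.07 with the length trend removed). To day 50 the single called gene made up 16.7% of those tested, against 15.6% for rises over all tested genes. It was LRX6 (Chr17.g27267), at 3.83, 5.32 and 4.8 FPKM at day 0, 13.4, 11.9 and 14 at day 20, and 11.1, 11 and 9.64 at day 50. No libraries overlapped with day 0 (1.57 ± 0.28 to day 20, adjusted p = 0.00266, and 1.25 ± 0.28 to day 50, adjusted p = 0.00418). The day 20 call was lost without day 0 A, day 0 C, day 20 A or day 20 C (adjusted p up to 0.0177). That at day 50 was lost without day 0 A, day 0 C, day 50 A or day 50 B (adjusted p up to 0.0208) and with the length trend removed (0.90), and this gene model also carries a mitochondrial carrier domain.

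The most abundant LRX gene, LRX4 (Chr2.g41535), differed widely within the later stages. It was at 3.5, 1.78 and 2.39 FPKM at day 0, 24.0, 4.03 and 30.3 at day 20, and 21.7, 26.6 and 2.98 at day 50. Day 20 B and day 50 C were at or near the day 0 range and the other 4 later libraries were far above it, so the test did not call it (2.82 ± 0.80 to day 50, adjusted p = 0.014), whereas it was called without those libraries (3.30, adjusted p = 2.25e-07).

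Proline-rich extensin-like receptor kinases had 23 of 45 genes tested, of which 7 rose and 1 fell to day 50 (34.8% called, against 26.6% of all tested genes). To day 20, 4 rose (17.4%, against 7.88% for rises over all tested genes). The median log2 fold change to day 50 was 1.21, or 0.74 with the length trend removed (4 higher, 2 lower). PERK13, which restrains root hair growth in Arabidopsis, was represented by 2 called genes. Chr9.g44553 (chromosome 9, 24231856 to 24234855) was at 0.394, 0.636 and 0.607 FPKM at day 0, 5.47, 3.96 and 3.48 at day 20, and 8.36, 5.94 and 7.58 at day 50. The 3 stages did not overlap (3.04 ± 0.37 to day 20, adjusted p = 0.00039, and 3.78 ± 0.38 to day 50, adjusted p = 3.7e-05). Contig9.g34849 had 1 count at day 0 and 116 at day 50, when it reached 1.1, 1.02 and 1.2 FPKM, a ratio of 102 (95% counting interval 17.9 to 4050, adjusted p = 0.000357).

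PERK2 (Chr1.g56859) was at 0, 0.0711 and 0.0279 FPKM at day 0, 1.68, 0.548 and 1.09 at day 20, and 4.46, 2.92 and 1.5 at day 50. Its libraries were separate from day 0 at both later stages (6.32 ± 0.82 to day 50, adjusted p = 0.00015), and the call at day 20 (adjusted p = 0.0017) was lost without day 0 A or without day 0 C (adjusted p up to 0.0142). PERK9 genes went both ways. Chr15.g04858 was at 3.03, 2.88 and 3.48 FPKM at day 0, 0.647, 1.41 and 0.618 at day 20, and 0.166, 0.302 and 0.4 at day 50, with no overlap between the stages, and fell by 3.37 ± 0.54 on the log2 scale to day 50 (adjusted p = 0.000536). By contrast Chr4.g38998, named after its values were seen, rose by 1.77 (adjusted p = 0.00668), a call lost without any day 0 library, day 50 A or day 50 B (adjusted p up to 0.0386) and with the length trend removed (1.24, adjusted p = 0.0139).

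PERK10 (Chr17.g24612) was called at day 20 and not at day 50. It was at 3.7, 5.63 and 5.72 FPKM at day 0, 17.1, 10.7 and 12.9 at day 20, and 9.72, 14.2 and 9.63 at day 50, above day 0 in all 6 later libraries. The call (1.51 ± 0.34, adjusted p = 0.00833) was kept without day 20 B and lost without any other library (adjusted p up to 0.046), and to day 50 the log2 fold change was 1.21 (adjusted p = 0.0138), called with DESeq2 and without day 20 B.

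**Figure D4:**
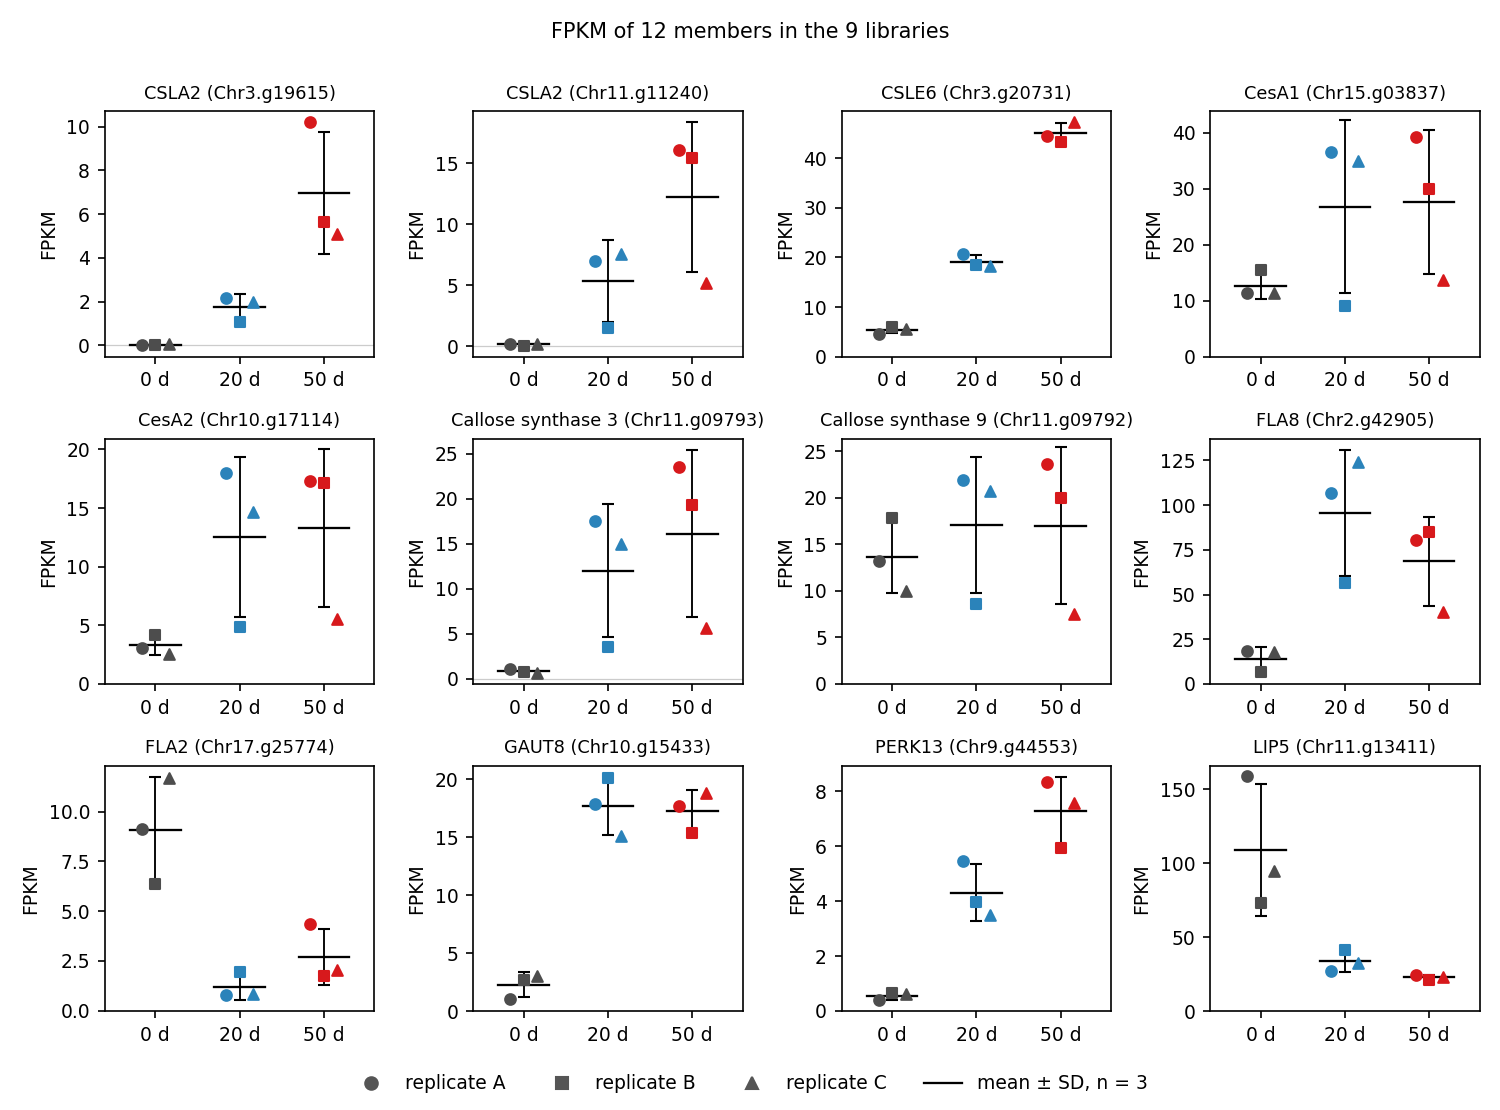
FPKM (vertical axes) of 12 wall genes in the 9 libraries by stage; circles, squares and triangles are replicates A, B and C, and the bar is the mean ± SD (n = 3). CSLE6, GAUT8 and PERK13 keep their replicates together, while in CesA1, CesA2 and both callose synthases the squares at day 20 and the triangles at day 50 sit below the other replicates of their stage.

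Of the 3 falls to day 50, 2 were of genes taken in by an alternative name. Both encode the homolog of mammalian LYST-interacting protein 5 (LIP5), a regulator of vesicle sorting to multivesicular bodies, whose entry also lists the name extensin-like, so they are not wall proteins by annotation. Chr11.g13411 (chromosome 11, 34835116 to 34838348) was at 159, 73.0 and 95 FPKM at day 0, 27.0, 41.3 and 32.7 at day 20, and 24.3, 21.2 and 23.2 at day 50. It was lower at every step without overlap and fell by 2.18 ± 0.34 on the log2 scale to day 50 (adjusted p = 0.000461). The call to day 20 (adjusted p = 0.00529) was lost without day 0 A, day 0 C, day 20 A, day 20 C or day 50 B (adjusted p up to 0.0299).

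The other LIP5 gene, Chr3.g17572, was at 93.4, 49.3 and 60.2 FPKM at day 0, 30.7, 36.5 and 33.1 at day 20, and 24.7, 29.1 and 31.5 at day 50. Day 0 was again above both later stages, and it fell by 1.19 ± 0.30 on the log2 scale to day 50 (adjusted p = 0.00757). This call was kept without day 0 B or day 20 B and lost without any other library (adjusted p up to 0.0376). Apart from LIP5, the fall of PERK9 was the single called fall of the 241 genes from day 0 to day 50.

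Genes that work beside these families were taken as a list of their own. The list of other wall synthesis genes held 228 genes, of which 142 were tested, and 32 rose and 7 fell from day 0 to day 50 (27.5%, against 26.6% of all tested genes), with a median log2 fold change of 0.51. From day 0 to day 20, 17 of the 142 rose and none fell. That total was near the 12.4% called among all tested genes (7.88% for rises and 4.52% for falls). From day 20 to day 50, 1 rose (0.704%, against 1.66%). The share of a sublist called to day 50 ran from 16.1% (xyloglucan and xylan) to 44.4% (cellulose companions). The background was 26.6%, or 15.6% for rises. By sublist, 15 of 48 acetylation genes rose with no fall, 7 of 41 genes modifying extensins and arabinogalactans rose and 4 fell, 4 of 31 for xyloglucan and xylan rose and 1 fell, 4 of 13 for pectin precursors rose, and 2 of 9 cellulose companions rose and 2 fell. Among these, PMR5 (Chr3.g20324), which affects pectin in Arabidopsis, rose from 2.05 ± 0.438 to 7.82 ± 0.154 and 10.2 ± 0.925 FPKM (2.37 ± 0.31 to day 50, adjusted p = 0.000151). UDP-glucose 6-dehydrogenase 1 (Chr16.g30886), which supplies UDP-glucuronic acid for pectin and xylan, rose from 13.9 ± 3.53 to 39.5 ± 14.5 FPKM at day 50 (1.58, adjusted p = 0.00393), and IRX9H (Chr8.g55893), a xylan synthesis protein, from 1.24 to 3.72 FPKM (1.64, adjusted p = 0.00795). The call of UDP-glucose 6-dehydrogenase 1 was lost without any day 0 library, day 50 A or day 50 B (adjusted p up to 0.0261), and that of IRX9H was kept only without day 20 B or day 50 C (adjusted p up to 0.0469).

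Of the 7 falls among these companions, those of the most abundant called gene of a sublist were as follows. Chitinase-like protein 1 (Chr4.g38349), a cellulose-binding protein needed for cellulose assembly in Arabidopsis, went from 353 ± 68.5 to 150 ± 35.1 and 139 ± 3.57 FPKM and fell by 1.28 ± 0.30 on the log2 scale to day 50 (adjusted p = 0.0049), a call lost without day 0 C, day 50 A or day 50 B (adjusted p up to 0.0227). RRA3 (Chr10.g16515), an arabinosyltransferase that decorates extensins, went from 47.6 ± 5.47 to 22.1 ± 3.2 FPKM and fell by 1.05 (adjusted p = 0.00749), a call kept only without day 0 A or day 20 B (adjusted p up to 0.0433).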

How the data were processed

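The authors sequenced whole-seed RNA from 9 pools on an Illumina platform, mapped the reads with HISAT2 to the P. betuleafolia genome and deposited 1 table with the read count and the FPKM of every gene in each library, beside annotation and the columns of their own comparisons (log2 fold changes and p-values), which were not used. The sources used here do not give the counting tool, its strand setting or its treatment of reads with several matches. The deposited FPKM values were found to have been scaled by size factors equal to those of DESeq2 times a constant.

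The counts were fitted in edgeR 4.0.16 (R 4.3.3; TMM factors, filterByExpr by stage, quasi-likelihood test, stage as the only term, all 9 libraries), and p-values were adjusted over 28339 genes by Benjamini-Hochberg. Calls were made at an adjusted p of 0.01 or less, a fold change of 1 or more on the log2 scale in either direction and a mean of 1 FPKM or more in at least 1 of the 2 stages. Alternatives used DESeq2 1.42.0, limma 3.58.1 on log2(FPKM + 1) and log2(FPKM + 0.1), other filters and limits, a replicate block, removal of the gene-length trend and omission of libraries. The fits were tested on simulated data. Whether the seed pools came from separate trees is not given, and p-values measure the spread between these pools. The libraries held totals of 13893019 to 16228340 counts, and precision depended on the spread between pools as well as on these.

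Per family, the genes named were the one with the highest mean FPKM, the 3 largest called rises and falls from day 0 to day 50, every call from day 20 to day 50 and the 2 largest calls at day 20 alone, and for other lists the called gene with the highest mean. Members and lists were chosen with earlier results of these data known.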

Additional observations from a re-analysis of the deposited data

How the results depend on the processing

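Of the 38 genes called from day 0 to day 50, DESeq2 also called 38, edgeR with RLE factors 37, the fit without a low-count filter 37, limma-trend 26 (+ 1) or 28 (+ 0.1) and the fit with the length trend removed 33, and all 38 kept their sign when any 1 library was left out. Leaving out 1 library gave 20 to 51 calls from day 0 to day 50 (20 without day 0 C, 22 without day 0 A, 25 without day 50 B) and kept 18 of the 38 each time; for day 0 to day 20 it gave 6 to 36 (6 without day 0 C, 7 without day 0 A, 10 without day 20 C, 12 without day 0 B or day 20 A, 36 without day 20 B), for day 20 to day 50 0 to 1, and for the other wall synthesis genes 20 to 46. An FPKM limit in both stages gave 12, 0 and 18 calls for the 3 comparisons in order (17 for the other wall genes), an adjusted p of 0.05 gave 40, 7 and 58, and edgeR's test against the fold limit (glmTreat) 8, 0 and 19 (20 for the other wall genes). From day 0 to day 20, DESeq2 called 35, removal of the length trend within stages 34 and limma-trend on log2(FPKM + 1) 12. From day 20 to day 50, DESeq2 called 6, the fit without a low-count filter 3, the fit of only those stages 0, limma-trend on log2(FPKM + 1) 3, and removal of the length trend 4 within stages or 3 against all libraries. Without day 20 B and day 50 C, an omission chosen after seeing the data, as were glmTreat and the length trend against all libraries, the counts were 52, 2 and 65. Deviations of libraries with the same replicate letter correlated at -0.41 to 0.552, and those of day 20 B and day 50 C, with different letters, at 0.723. Because these 2 libraries stood apart, the correlations cannot show whether the letters pair the samples. A replicate block gave 10, 0 and 27 calls (25 for the other wall genes). No called result of a named gene changed sign; of those not called, COBRA (0.09) and GAUT6 (-0.02) did so without day 50 C, and GAUT6 (-0.23) and callose synthase 9 (-0.43) with the length trend removed against all libraries. The causes of these shifts were not tested. With 3 pools per stage, 2 of 6 later libraries were unlike their replicates. Genes with under about 3 counts at day 0 have ratios set mainly by counting error.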
